A study of Mus musculus with 2 samples.

Results

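The Mir181 family of the mouse holds 6 microRNA genes, Mir181a-1, Mir181b-1, Mir181a-2, Mir181b-2, Mir181c and Mir181d, taken by their GENCODE symbols from 2202 annotated microRNA genes in 2 small-RNA libraries. The mice were B6CASTF1/J females aged 14 days, offspring of C57BL/6J and CAST/EiJ parents, and they formed 1 group with 2 biological replicates; the labels name no treatment. A replicate pooled 3 females by its label and gave 1 library, so pool and library preparation cannot be told apart. The sampled tissue is labelled as an unnamed hippocampal layer, and the RNA as below a size of 30 with no unit.

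A microRNA gene is transcribed as a hairpin, which Drosha and Dicer cut into a short duplex. One strand of the duplex, from the 5p or the 3p arm, is loaded into an Argonaute protein and pairs through its seed with messenger RNAs, whose translation or stability it lowers. The family is best known from mouse thymocytes, where miR-181a sets the sensitivity of the T cell receptor. In rat hippocampal neurons miR-181a lowers the AMPA receptor subunit GluA2.

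The 5p products are shown first because they define the family and because 2 of them come from a pair of genes each. Mature sequences were matched for 6 of 6 genes and hairpins for 5, Mir181c being matched by its arms, all from RefSeq on GRCm38.p6. Capitals mark the seed, bases 2 to 8 from the 5′ end.
miR-181a-5p, from Mir181a-1 and Mir181a-2: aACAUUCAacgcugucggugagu
miR-181b-5p, from Mir181b-1 and Mir181b-2: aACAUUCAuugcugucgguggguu
miR-181c-5p, from Mir181c: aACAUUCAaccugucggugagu
miR-181d-5p, from Mir181d: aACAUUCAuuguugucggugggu

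All 4 products carry the seed ACAUUCA, and none of the other genes among the 1058 with a mature product in the RefSeq table carries it. Beyond the seed, miR-181b-5p differs from miR-181d-5p by the substitution C12U and ends 1 base later. The substitutions between miR-181a-5p and miR-181b-5p are A9U, C10U and A21G. Positions are counted from the 5′ end of the arm, with the base of the first-named product given first.

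The 3p products tell the copies apart, as the next lines show with the seed again in capitals.
miR-181a-1-3p, from Mir181a-1: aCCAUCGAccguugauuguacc
miR-181a-2-3p, from Mir181a-2: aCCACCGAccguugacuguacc
miR-181c-3p, from Mir181c: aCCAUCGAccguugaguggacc
miR-181b-1-3p, from Mir181b-1: cUCACUGAacaaugaaugcaa
miR-181b-2-3p, from Mir181b-2: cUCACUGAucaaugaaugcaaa
miR-181d-3p, from Mir181d: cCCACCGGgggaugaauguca

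The arms of Mir181a-1 and Mir181a-2 on the 3p side differ by U5C and U16C, and the first of these lies in the seed. Those of Mir181b-1 and Mir181b-2 keep 1 seed and differ by A9U, and miR-181b-2-3p is 1 base longer. Mir181a-1 shares its 3p seed with Mir181c, and their 3p arms differ by U16G and U19G (Mir181a-1 first). No 3p arm was found whole in another gene of the table.

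Whole 5p arms were found in a second gene for 4 of the 6 members. The hairpins of both copies are shown with their longest shared run in capitals, because a read that lies inside that run has more than 1 place in the genome.
Mir181a-1, chr1:137966455-137966541, plus strand: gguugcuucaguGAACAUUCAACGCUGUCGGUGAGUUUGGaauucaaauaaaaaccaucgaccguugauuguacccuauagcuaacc
Mir181a-2, chr2:38852735-38852810, plus strand: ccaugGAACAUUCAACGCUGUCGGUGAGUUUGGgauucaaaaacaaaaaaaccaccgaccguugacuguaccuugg
Mir181b-1, chr1:137966639-137966718, plus strand: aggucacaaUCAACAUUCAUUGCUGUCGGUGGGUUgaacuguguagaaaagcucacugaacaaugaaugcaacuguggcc
Mir181b-2, chr2:38853830-38853918, plus strand: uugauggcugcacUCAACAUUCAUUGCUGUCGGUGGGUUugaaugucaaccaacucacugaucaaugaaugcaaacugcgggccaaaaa

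The run is 28 bases long in the Mir181a copies, and it holds the whole 23-base 5p arm with 1 base before and 4 bases after it. In the Mir181b copies it is 26 bases long and ends with the last base of the 24-base arm. The next base differs between these copies (G25U, Mir181b-1 first, counted from the 5′ end of the arm). The longest run that Mir181d shares with another hairpin is 13 bases. The deposited tables set multi-mapping reads apart from genes, and these came to 2911660 reads in replicate 2 and 5381960 in replicate 1. How many of them came from Mir181 genes cannot be read from the tables. The counts of Mir181a-1, Mir181a-2, Mir181b-1 and Mir181b-2 are therefore uncertain as measures of their 5p products, and arms are not counted separately for any gene.

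**Figure D1:**
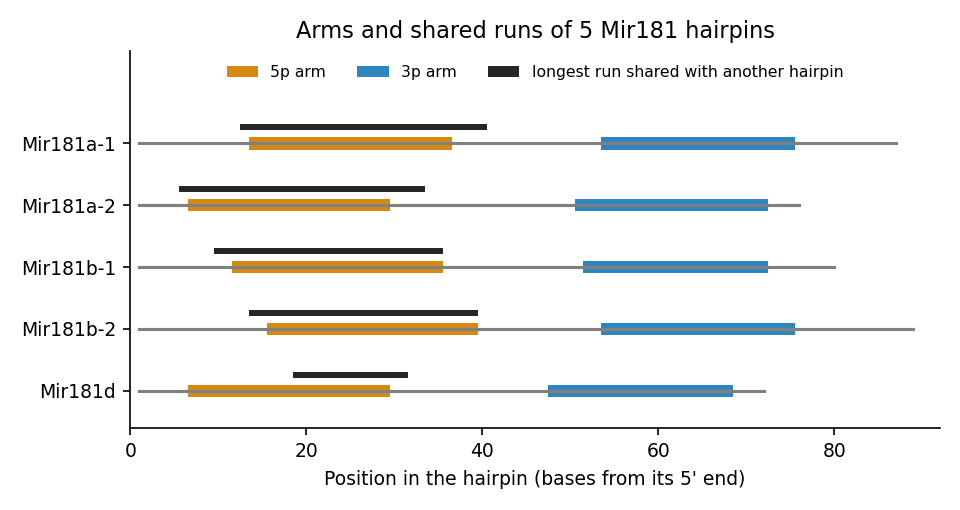
Position in the hairpin, in bases from its 5′ end, of the 5p arm, the 3p arm and the longest run shared with another RefSeq hairpin, for 5 Mir181 genes. The shared run covers the whole 5p arm in the Mir181a and Mir181b copies. In Mir181d it is 13 bases long, from base 19 to base 31, and the 5p arm ends at base 29. No shared run drawn here reaches a 3p arm.

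The members form 3 clusters of 2 genes in the genome build GRCm38. Mir181a-1 (ENSMUSG00000065565.1) and Mir181b-1 (ENSMUSG00000065458.1) lie 97 bases apart on chromosome 1, both within an intron of the noncoding transcript Gm4258 on the same strand. Mir181b-1 also lies wholly in an exon of the long noncoding RNA A430106G13Rik, and the last 11 bases of the Mir181a-1 gene overlap the start of that exon. Mir181a-2 (ENSMUSG00000065423.1) and Mir181b-2 (ENSMUSG00000065578.1) lie 1019 bases apart on chromosome 2, opposite to an intron of Nr6a1, which encodes a nuclear receptor. Mir181c (ENSMUSG00000065483.2, chromosome 8, 84178873 to 84178961) and Mir181d (ENSMUSG00000076338.1, chromosome 8, 84178716 to 84178787) lie 85 bases apart on the minus strand. Both are in an intron of Nanos3, a gene of germ cell development annotated on that strand.

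Reads assigned to microRNA genes numbered 2852269 in replicate 2 and 4764797 in replicate 1, or 36.4% and 36.1% of each library. Levels are given in CPM, counts scaled to the assigned reads of a library, and the floor of 3 counts that goes with a count of 0 was 1.05 CPM in replicate 2 and 0.630 CPM in replicate 1. Counting intervals are exact at 95% and leave out amplification, since the reads carry no molecular identifiers. Marker microRNAs of neurons held 2.72% ± 0.0424 of the counts (SD, n = 2), with 11 of 14 genes detected. By the gene-by-gene comparison of the pools given below, 5 of these 11 were higher and 4 lower in replicate 2. Over all genes tested, 32.9% were higher and 32.0% lower. Of the 3 copies of the neuronal Mir124a only Mir124a-1 was detected, with 18 counts (6.31 CPM) in replicate 2 and 10 counts (2.10 CPM) in replicate 1. These copies share a mature sequence, so the multi-mapping reads, in no gene here, may hold reads of them too. Those of lymphocytes and other immune cells held 0.188% in replicate 2 and 0.247% in replicate 1, and those of choroid plexus and ciliated epithelium held 0.119% and 0.395%. The astrocyte markers held 0.185% ± 0.00914, the oligodendrocyte markers 0.256% ± 0.0897, and the blood vessel markers 1.82% ± 0.310. The detected blood vessel markers went opposite ways. Mir126a had 16864.5 CPM in replicate 2 and 9965.6 in replicate 1, while Mir143 had 3305 and 5729 and Mir145a had 179.5 and 268.0. The red blood cell markers held 0.0722% in replicate 2 and 0.0290% in replicate 1, but this difference rested on Mir451a. It had 663 CPM in replicate 2 and 217 in replicate 1, while Mir144 had 37.5 and 47.2 and Mir486 had 20.7 and 25.4. The oligodendrocyte markers held 0.320% in replicate 2 and 0.193% in replicate 1. Mir219a-2 had 2583 CPM in replicate 2 and 1247 in replicate 1 and Mir219a-1 had 25.2 and 17.2, while Mir338 had 590 and 664. The part of these marker lists in the results below was not tested.

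All 6 members were detected, with at least 10 sense counts in both libraries, against 18.6% of all 2202 genes. Together they held 1.01% (95% interval 0.998 to 1.02) of the assigned counts in replicate 2 and 1.02% (1.01 to 1.03) in replicate 1, with sums of 28809 and 48630 counts. The intervals of the libraries overlap. The mean share was 1.02% ± 0.00748 (SD, n = 2), and 19 single genes outside the family had a higher mean level than the 6 members together. Multi-mapping reads, which may include reads of the Mir181a and Mir181b copies, are in none of these values. In a bulk sample, fewer cells of a type and less RNA per cell cannot be told apart.

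The family's levels spanned 96.1-fold between the highest and the lowest mean. Mir181b-2 had 11100 counts (3892 CPM) in replicate 2 and 13604 counts (2855 CPM) in replicate 1. Mir181d had 8326 counts (2919 CPM) in replicate 2 and 17518 counts (3677 CPM) in replicate 1. These 2 genes led the family, and each was the higher one in 1 library.

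Mir181c, the cluster partner of Mir181d, had 6383 counts (2238 CPM) in replicate 2 and 13166 counts (2763 CPM) in replicate 1. Mir181a-1 had 2597 counts (911 CPM) in replicate 2 and 3971 counts (833 CPM) in replicate 1. Both lay below Mir181b-2 and Mir181d in each library.

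The remaining members stood far lower. Mir181a-2 had 286 counts (100.3 CPM) in replicate 2 and 232 counts (48.7 CPM) in replicate 1, so its mean of 74.5 ± 36.5 CPM would be 48.7 CPM without replicate 2. Mir181b-1 was the lowest member, with 117 counts (41.0 CPM) in replicate 2 and 139 counts (29.2 CPM) in replicate 1. The counting intervals of Mir181a-2, 89.0 to 112.6 CPM in replicate 2 and 42.6 to 55.4 CPM in replicate 1, do not overlap each other. Those of Mir181b-1 do, at 33.9 to 49.2 CPM in replicate 2 and 24.5 to 34.4 CPM in replicate 1.

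**Figure D2:**
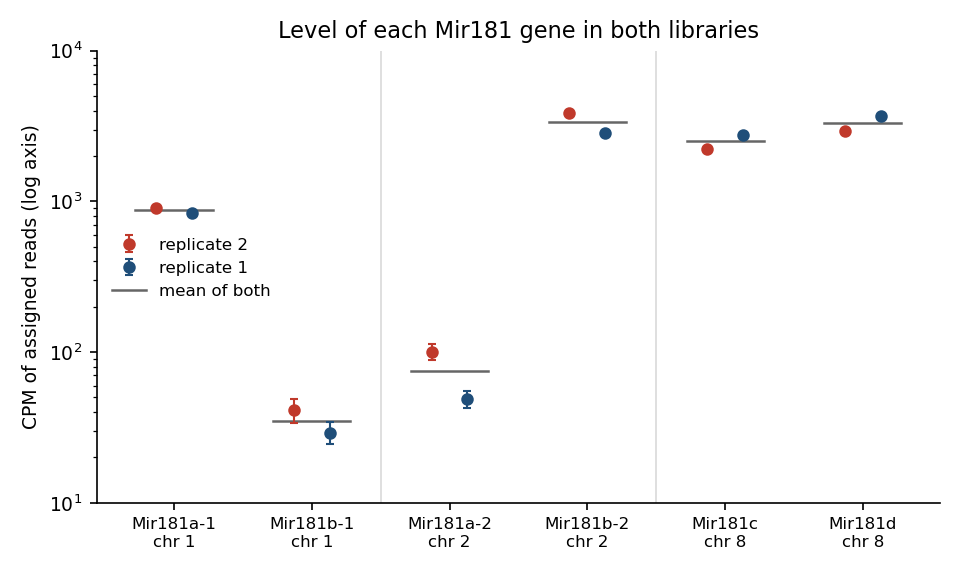
Level of each Mir181 gene in CPM of assigned reads on a log axis, by cluster, with replicate 2 left of replicate 1. Points are libraries, bars are exact 95% counting intervals and horizontal lines are the mean of both, and Mir181b-1 and Mir181a-2 sit below 113 CPM while the other 4 genes have at least 833 CPM.

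By mean level the order was Mir181b-2 at 3373 ± 733 CPM, Mir181d at 3298 ± 536, Mir181c at 2501 ± 371, Mir181a-1 at 872 ± 54.5, Mir181a-2 at 74.5 ± 36.5 and Mir181b-1 at 35.1 ± 8.38 (SD, n = 2 each). Mir181b-2 and Mir181d differed by 75.6 CPM, less than either SD. Mir181d was above Mir181c in both libraries, but their difference of 797 CPM was less than the sum of their SDs. The steps to Mir181a-1, 2.87-fold below Mir181c, and to Mir181a-2, 11.7-fold below Mir181a-1, were larger than the summed SDs. Mir181a-2 stood above Mir181b-1 in both libraries, by 39.4 CPM on average, again less than the summed SDs. Among the 409 detected microRNA genes, 87.5% had a lower mean level than Mir181b-2 and 36.2% a lower one than Mir181b-1.

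Grouped by cluster, Mir181c and Mir181d supplied 51.1% of the family's counts in replicate 2 and 63.1% in replicate 1. The chromosome 2 cluster supplied 39.5% in replicate 2 and 28.5% in replicate 1, nearly all of it from Mir181b-2. The chromosome 1 cluster supplied 9.42% in replicate 2 and 8.45% in replicate 1, mostly from Mir181a-1. The order of the clusters was the same in both libraries, and the chromosome 8 and chromosome 2 clusters lay closer together in replicate 2.

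**Figure D3:**
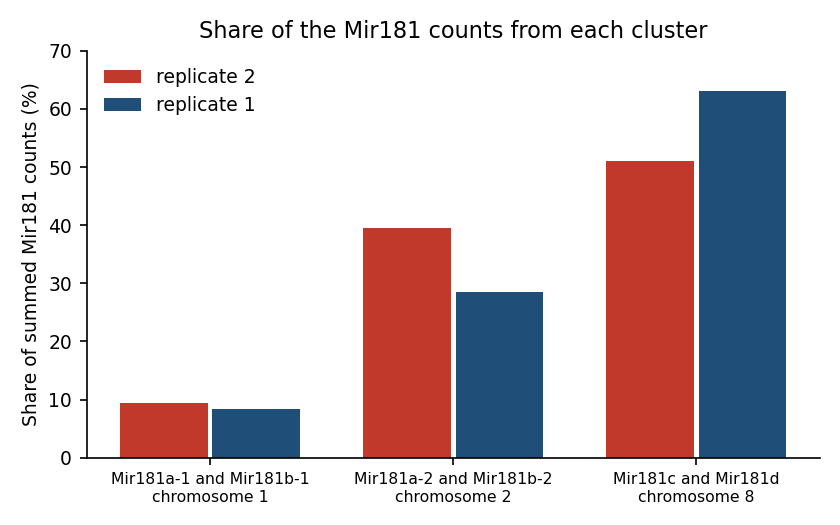
Share of the summed Mir181 counts, in percent, from each of 3 clusters, with replicate 2 left of replicate 1. Bars are single libraries without an error, and the chromosome 8 cluster is highest in both, at 51.1% in replicate 2 and 63.1% in replicate 1. Multi-mapping reads are left out of all bars.

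The ratio of the 2 genes within a cluster does not depend on how the libraries are scaled. On chromosome 8, Mir181d had 1.30 times the counts of Mir181c in replicate 2 (1.26 to 1.35) and 1.33 times in replicate 1 (1.30 to 1.36). The difference between the libraries in this log2 ratio, replicate 2 minus replicate 1, was -0.03 (exact 95% counting interval -0.09 to 0.03). These partners, neither of which has a whole arm in another gene, thus kept their ratio within counting error.

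The other clusters were uneven, and in opposite ways. On chromosome 2, Mir181b-2 had 38.8 times the counts of Mir181a-2 in replicate 2 (34.5 to 43.8) and 58.6 times in replicate 1 (51.5 to 67.1), a log2 difference of -0.60 (-0.85 to -0.34). On chromosome 1, Mir181a-1 had 22.2 times the counts of Mir181b-1 in replicate 2 (18.4 to 26.9) and 28.6 times in replicate 1 (24.1 to 34.1). As Mir181b-1 over Mir181a-1 the log2 difference was 0.36 (-0.01 to 0.74), which includes 0. So the Mir181b gene was the higher one on chromosome 2 and the Mir181a gene the higher one on chromosome 1, in both libraries. All 4 genes share their whole 5p arm with a copy, as printed above, and the part of this in their ratios was not tested.

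**Figure D4:**
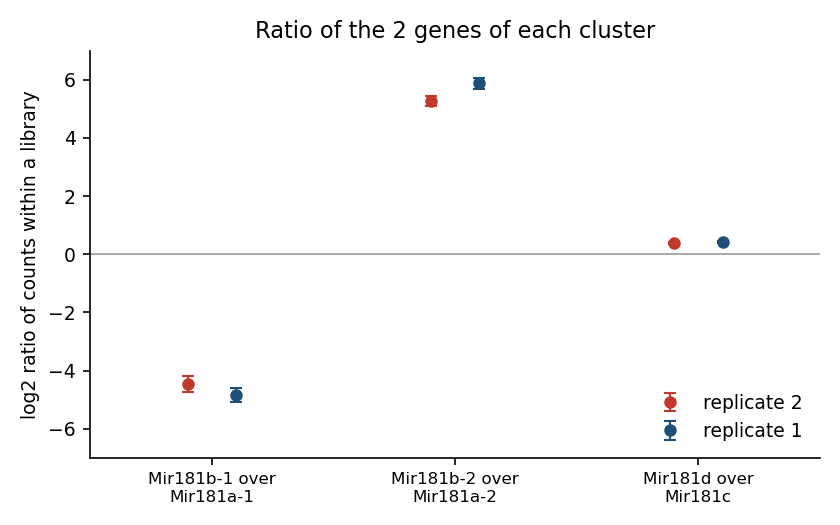
The log2 ratio of counts of the 2 genes of each cluster within a library, with replicate 2 left of replicate 1 and exact 95% counting intervals. Mir181d over Mir181c lies at 0.38 in replicate 2 and 0.41 in replicate 1, while Mir181b-1 over Mir181a-1 lies below -4 and Mir181b-2 over Mir181a-2 above 5.

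Set against its copy in the other cluster, Mir181b-2 had 94.9 times the counts of Mir181b-1 in replicate 2 and 97.9 times in replicate 1, a log2 difference of -0.04 (-0.41 to 0.32). Mir181a-2 had 0.110 times the counts of Mir181a-1 in replicate 2 and 0.0584 times in replicate 1, a log2 difference of 0.91 (0.65 to 1.18). Within counting error the Mir181b copies kept their ratio, and the Mir181a copies did not.

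The 2 pools were then compared gene by gene. Each ratio sets replicate 2 over replicate 1 after TMM scaling of the library sizes. For the 450 genes whose summed count reached 20, a two-sided exact binomial test gave p-values that were adjusted by Benjamini and Hochberg's method at 0.05. The test compares these libraries and has no replicate check. Of the 6 Mir181 genes 4 were higher and 2 lower in replicate 2, where 32.9% of all genes tested were higher, 32.0% were lower and 64.9% passed in either direction. Among the 273 tested genes whose mean count reached 100, to which all 6 members belong, 86.8% passed, so the members' number of calls lies near that background.

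Both genes of the chromosome 2 cluster and both of the chromosome 1 cluster were higher in replicate 2, and both of the chromosome 8 cluster were lower. Mir181a-2 had the largest log2 ratio of the family at 1.16 (0.91 to 1.42; adjusted p = 2.39e-19 by the exact binomial test). It was the only member past 2-fold, where 22.0% of all genes tested lay past 2-fold in either direction. Mir181b-2 had a log2 ratio of 0.57 (0.53 to 0.61).

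Mir181b-1 had a log2 ratio of 0.61 (0.25 to 0.98; adjusted p = 1.58e-03 by the exact binomial test), the widest interval of the family. Mir181a-1 had 0.25 (0.18 to 0.32). Mir181c had -0.18 (-0.23 to -0.14) and Mir181d -0.21 (-0.25 to -0.17), so the chromosome 8 partners moved by nearly the same amount.

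The median size of the log2 ratio, sign left out, was 0.51 over all genes tested, above the values of Mir181a-1, Mir181c and Mir181d. A larger size than that of Mir181a-2 was seen in 16.7% of the genes tested, and a larger one than that of Mir181c in 80.0%. The median log2 ratio was 0.41 over the 6 members and 0.01 over all genes tested. For the summed counts of the family the log2 ratio was 0.11 (0.09 to 0.13), and it was 0.03 with DESeq2 size factors and -0.015 (-0.036 to 0.006) when total counts replaced TMM scaling, which shifts every ratio by -0.12. The direction of the family as a whole therefore depends on the scaling, while each member kept its own direction under these scalings.

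**Figure D5:**
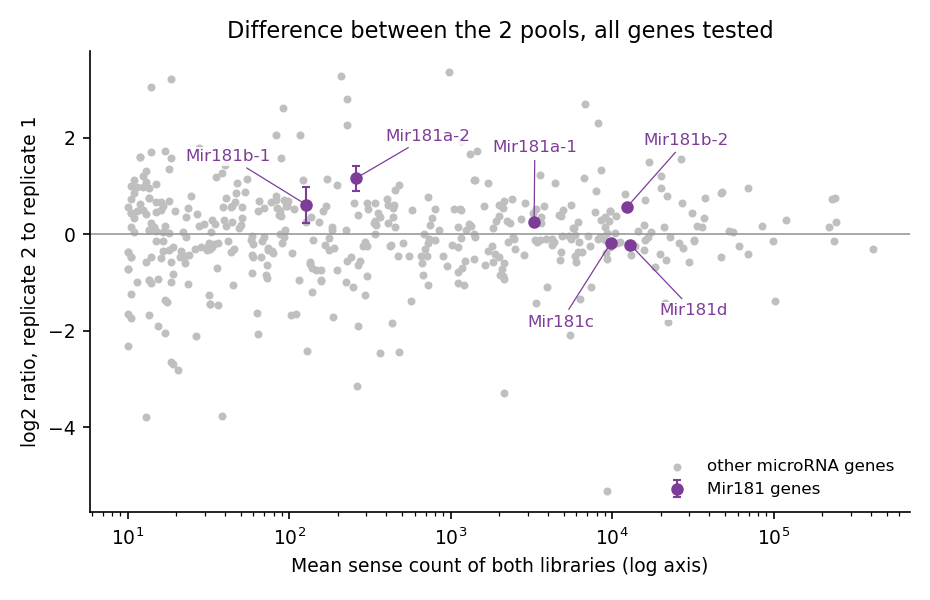
The log2 ratio of replicate 2 to replicate 1 against the mean sense count on a log axis, for 450 genes, with exact 95% counting intervals for the 6 Mir181 genes. Mir181a-2 stands highest of the family at 1.16, and Mir181c and Mir181d lie just below 0.

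All reads assigned to the 6 members came from the sense strand. The opposite-strand column held 0 counts for every member in both libraries, so any such signal lay below 1.05 CPM in replicate 2 and 0.630 CPM in replicate 1. Opposite-strand counts were seen in 90 other genes. Nr6a1 and Gm44144 are annotated opposite to Mir181b-2, and Gm26936 opposite to Mir181a-1 and Mir181b-1, but the unstranded count equalled the sense count for 6 of 6.

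Genes nearest to the family in level were found by the distance of log2 CPM over the 2 libraries. Mir324 (distance 0.13), Mir191 (0.17) and Mir541 (0.29) lay nearest to the summed family, which had 10100 CPM in replicate 2 and 10206 CPM in replicate 1. Mir221 (0.20), Mir98 (0.35) and Mir296 (0.44) lay nearest to Mir181b-2. Near levels did not always go with a like difference between pools. Unlike the summed family, Mir324, Mir191 and Mir541 had more CPM in replicate 2, as with Mir191 at 10592 against 9142. Mir221 and Mir98 were higher in replicate 2, as Mir181b-2 was, but Mir296 had 3753 CPM there and 3860 in replicate 1. With 2 libraries the distance rests on 2 values per gene.

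Against other families with paralogous clusters, the Mir181 share of 1.02% lay between those of the Mir29 and Mir30 families. The 6 genes of the Mir30 family held 1.46% ± 0.236 of the counts (SD, n = 2), the 6 genes of the Mir23, Mir27 and Mir24 clusters 2.34% ± 0.425 and the 4 genes of the Mir29 family 0.176% ± 0.00966. The span between highest and lowest member was 96.1-fold for Mir181, 74.3-fold for Mir30, 79.4-fold for Mir29 and 470-fold for the Mir23, Mir27 and Mir24 clusters. Every group compared holds genes that share a mature sequence. Multi-mapping reads, which may include theirs, are in none of these values. No test of these differences was run.

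MicroRNAs linked to synapses and neuronal activity, a setting in which miR-181a has been studied in rats, were read beside the family. Of 15 such genes 8 were higher and 6 lower in replicate 2, where 32.9% of all genes tested were higher and 32.0% lower. A mean count of at least 100 was reached by 12 of the 15, and 86.8% of all tested genes at that depth passed in either direction. The median log2 ratio of the 15 genes was 0.28, against 0.01 over all genes tested. With total counts as library sizes it became 0.16, against -0.11 over all genes tested. Mir132, an activity-induced microRNA, stood at 6070 ± 1968 CPM, Mir137, which acts in neuronal maturation, at 5339 ± 1678 and Mir128-1, a neuron-enriched microRNA, at 4973 ± 3440 (SD, n = 2 each). Mir181b-2, at 3373 ± 733 CPM, lay below each of these means, but in replicate 2 it stood above Mir128-1, at 3892 CPM against 2540.

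MicroRNAs linked to lymphocytes and thymus, the other setting of this family, had 9 of 11 genes tested, 3 higher and 4 lower in replicate 2, beside the same shares of 32.9% and 32.0% over all genes tested. The median of their log2 ratios was -0.12, against 0.01 over all genes tested. With total counts as library sizes it became -0.24, against -0.11 over all genes tested. In that setting 3 of the 9 were higher and 6 lower, beside 127 higher and 168 lower of all 450 tested. Mir17, of the proliferation-linked Mir17-92 cluster, stood at 2543 ± 185 CPM and Mir92-1 of the same cluster at 1258 ± 176. Mir150, abundant in mature lymphocytes, stood at 914 ± 109 CPM, near Mir181a-1. Its level was lower in replicate 2 (log2 ratio -0.12, -0.19 to -0.05), while Mir181a-1 was higher there.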

How the data were processed

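Small RNA of pooled hippocampal tissue was sequenced in 2 libraries of 1 group. The authors deposited 1 table per library of raw read counts for microRNA genes on assembly mm10 with GENCODE annotation M21, per the text beside the tables and the labels. Aligner and counter: not given in the sources used here. Sense was the strand column of larger total, and 4 lines for reads in no gene stayed out of library sizes (63.6% and 63.9% of all reads in replicates 2 and 1). All 2202 gene identifiers matched a symbol.

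CPM, within-cluster ratios and exact intervals were computed with Python 3.11.15, numpy 2.4.6, pandas 2.3.3 and scipy 1.17.1, and figures with matplotlib 3.10.9. TMM factors came from edgeR 4.0.16 in R 4.3.3, over genes whose summed count reached 20. A quasi-likelihood test has nothing to compare in 1 group, so an exact binomial test was used. It was tested on simulated data that varied by counting error alone, so the simulation does not cover the spread between pools. Alternatives were DESeq2 1.42.0 size factors, the unstranded column, total counts, TMM over all genes (added after seeing the data), other filters, denominators and detection minimums, an adjusted p under 0.01, thinning and leaving out each replicate.

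Members and lists were chosen with earlier results of these data known. Named were all 6 members, the 3 most abundant genes of the gene lists and the 3 genes nearest to the family and to its leading member, but the cell type markers are given by list. Mir124a, a neuron marker, and the detected markers of red blood cells, oligodendrocytes and blood vessels were named after their values were seen. Mir153 was named because it was listed without a second copy. The labels call the libraries biological replicates, and SDs cover the spread between these pools. Shared sequences were searched in 1005 RefSeq hairpins, not in the genome.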

Additional observations from a re-analysis of the deposited data

How the results depend on the processing

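Each of the 6 members kept its direction and its call under 6 alternatives of column, scaling and filter, with log2 ratios of replicate 2 to replicate 1 from 1.04 to 1.17 for Mir181a-2, 0.45 to 0.58 for Mir181b-2, 0.49 to 0.62 for Mir181b-1, 0.13 to 0.26 for Mir181a-1, -0.30 to -0.17 for Mir181c and -0.33 to -0.20 for Mir181d. For the summed family the log2 ratio of 0.11 became 0.03 with DESeq2 size factors, 0.04 with TMM over all genes and -0.015 with total counts as library sizes, each a shift that such a scaling gives to every gene. The family's mean share of 1.02% became 1.08% with the unstranded column, 1.13% without the most abundant gene and 0.368% with all reads as denominator, and leaving out a replicate gave 1.01% to 1.02%. Over all genes, those past 2-fold numbered 309 of 788 with no filter on low counts and 52 of 273 with a summed count of 200 or more, against 99 of 450, and with no filter the share of the genes tested was 39.2%, against 22.0%. The cause was not tested. Leaving out a replicate gave log2 ratios of 0.38 to 0.41 for Mir181d over Mir181c, 5.28 to 5.87 for Mir181b-2 over Mir181a-2 and -4.84 to -4.47 for Mir181b-1 over Mir181a-1, and the number of members detected stayed at 6 under every alternative run. No paired analysis was possible because the labels give 1 group. Depth limits Mir181b-1 and Mir181a-2, with at most 139 and 286 counts in a library.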

Other observations

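Other genes whose mature sequence comes from several loci can be set beside Mir181a and Mir181b. Of 37 genes listed as such 33 were detected. Mir153 was listed without a second copy, and it was lower in replicate 2, with a log2 ratio of -1.38. Of 34 listed genes tested 16 were higher and 10 lower in replicate 2, beside 32.9% higher and 32.0% lower of all genes tested. The median of their log2 ratios was 0.12, against 0.01 over all genes tested. With total counts as library sizes their median became -0.003, against -0.11 over all genes tested. They were led by Mir128-1 at 4973 ± 3440 CPM, Mir138-1 at 4957 ± 3107 CPM and Mirlet7c-2 at 3272 ± 861 CPM (SD, n = 2 each), which lies near Mir181b-2 at 3373 ± 733 CPM. Mir128-1 had 2540 CPM in replicate 2 and 7405 CPM in replicate 1, and Mir138-1 had 7155 CPM in replicate 2 and 2760 CPM in replicate 1, each a larger log2 ratio in size than that of any Mir181 gene.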
